A study of Mus musculus with 8 samples.

Results

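*Vsx1*, *Bhlhe22*, *Bhlhe23*, *Irx5*, *Irx6*, *Lhx4* and *Prdm8* are transcription factor genes of retinal bipolar cells, taken here by their gene names as 7 of the 54532 genes counted in whole mouse retinas. Bulk RNA-seq was made from 4 *Mettl3*-CKO samples, which carry *Six3-Cre* and 2 floxed *Mettl3* alleles, and from 4 control samples, whose alleles are not given for these libraries. The labels place all 8 retinas at postnatal day 7 (p7), and the methods give the day before. *Six3-Cre* is active in retinal progenitor cells (RPCs), the study saw efficient loss of METTL3 protein in the central retina, and RNA here came from the whole retina, so the *Mettl3*-CKO samples include peripheral cells in which that loss was not described. How many animals made up a sample is not given, so the p-values measure the spread between these 8 samples. In bulk RNA, fewer cells of a type and less RNA per cell cannot be told apart.

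Bipolar cells are the interneurons that carry signals from photoreceptors to amacrine and ganglion cells. They are among the last neurons that RPCs make, and in the mouse they are still maturing at p7. Nearly all of them use *Otx2*, and a further layer of homeobox and basic helix-loop-helix (bHLH) factors then sets the subtype: rod bipolar, ON cone bipolar or OFF cone bipolar. *Vsx1*, a paired-like homeobox gene, and the Iroquois homeobox genes *Irx5* and *Irx6* belong to cone bipolar cells. *Bhlhe23* is needed by rod bipolar cells, *Bhlhe22* by some OFF cone bipolar and amacrine cells, *Prdm8*, a PR domain zinc finger gene, by rod bipolar cells, and *Lhx4*, a LIM homeobox gene, is found in bipolar cells and in cones. METTL3 is the enzyme that places N6-methyladenosine (m6A) on RNA, often on the A within the letters GGACT.

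All 7 genes had the same coordinates and strand in the GENCODE annotation of GRCm38 as in the deposited table. *Irx5* and *Irx6* are neighbors on the plus strand of chromosome 8, at chr8:92357625-92376286 and chr8:92674288-92680956. *Vsx1* at chr2:150680702-150689360 and *Bhlhe23* at chr2:180774381-180776900 share the minus strand of chromosome 2. *Lhx4* lies at chr1:155698031-155751684 on the minus strand, *Bhlhe22* at chr3:18054174-18057517 and *Prdm8* at chr5:98167198-98188991, both on the plus strand. *Bhlhe22* and *Bhlhe23* each consist of 1 exon. Genes that overlap a member may limit its count, and for antisense genes this depends on the strand setting of the counting, which is not given. *Prdm8* spans the antisense gene *A730035I17Rik* (35 to 56 counts per sample), and *Irx6* shares 785 bases with the antisense gene *Gm45505* (0 to 5 counts). *Bhlhe23* shares 1023 bases on its own strand with *Gm14343* (0 counts in every sample), where reads may have been assigned to neither gene.

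The letters GGACT were counted on the sense strand of each gene's longest coding transcript (GENCODE, GRCm38), because they are the letters METTL3 favors. At least 1 copy was present in 92.9% of the 14285 tested genes with a coding transcript, at a median of 1.05 per kilobase (quartiles 0.649 and 1.51). *Irx5* held 0 copies in 2550 bases, the only member without one in the transcript searched. Its length for counting was 3127 bases, so part of its counted sequence was not searched. *Bhlhe22* held 1 copy in 3344 bases and *Prdm8* 3 in 4553 bases, while *Lhx4* held 6 in 5514 bases. *Irx6* and *Bhlhe23* had 7 copies each, or 2.08 and 2.78 per kilobase, above the upper quartile, and *Vsx1* had 5. The copy nearest to the stop codon is shown for the tested members that have one, with GGACT in capitals, so that their surroundings can be compared.
Lhx4, coding part of exon 6 of 6, chr1:155702481-155702505, minus strand: aatcctatcaGGACTtgagggatgg
Irx6, 3′ untranslated part of exon 6 of 6, chr8:92679730-92679754, plus strand: accttggcatGGACTgggagctctc
Prdm8, 3′ untranslated part of exon 4 of 4, chr5:98187252-98187276, plus strand: aaatgattatGGACTtcagtgaaga
Bhlhe22, 5′ untranslated part of its single exon, chr3:18054494-18054518, plus strand: gcgcgggattGGACTcagaggcggt
The A of the motif lay 271 bases before the last base of the stop codon in *Lhx4* and 1349 bases before it in *Bhlhe22*, and 89 bases after it in *Irx6* and 622 bases after it in *Prdm8*. A match is a description of the sequence, and methylation was not measured in these libraries. The study mapped m6A in retinas of other mice, and those sites are not reported here.

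The 8 libraries held between 16227095 and 20281517 counts on genes. Values by sample are given in the order of replicates 1 to 4. CPM is the usual per-library scaling of a count by the library total. Values of single genes also use TMM factors, while marker sums and the floor of detection use the library total alone. That floor was taken as 3 counts, equal to 0.148 to 0.185 CPM in a library, a limit that covers counting error only. For *Mettl3* itself, the *Mettl3*-CKO mean was 24.1 ± 3.97 CPM (SD, n = 4) against a control mean of 31.2 ± 2.24 CPM (SD, n = 4), and edgeR estimated the log2 fold change at -0.38 (SE, its standard error, 0.12; adjusted p = 0.0602), with *Mettl3*-CKO replicate 2 inside the control range. Whole-gene counts include any exons outside a deleted segment, and their part in the *Mettl3* value was not tested. Control replicate 4 held lens RNA: the 9 lens markers summed to 2683.4 CPM of its total, against 51.5 CPM in control replicate 1 and 4.5 to 15.7 CPM elsewhere. Control replicate 1 stood apart by its low cycling-cell sum (1833.4 CPM against 2066.7 to 2355.0 CPM in the other controls) and its high rod sum (4256.1 CPM against 2854.3 to 3358.9 CPM), so the fold changes of the tested members are also given without both of these libraries. Retinal identity was clear, with *Otx2* at 907.5 CPM or more in each sample.

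None of the 7 bipolar factors was called changed in *Mettl3*-CKO retinas. Of the 5 that had enough counts to be tested, 0 were higher and 0 lower at an adjusted p under 0.05 (edgeR's quasi-likelihood test, adjusted over all 17998 genes tested), where 6.49% of all tested genes were called higher and 4.05% lower. DESeq2 and limma voom also called 0 of the 5. Over the 17998 genes, DESeq2 called 1476 higher and 1072 lower, and limma voom 1148 higher and 689 lower. At an unadjusted p under 0.05 the count was 1 of 5, *Irx5*, against 24.6% of all tested genes. The groups did not overlap in 0 of the 5, against 17.3% of all tested genes. The median log2 fold change of the 5 was 0.16, with a range from -0.24 to 0.26, and that of all tested genes was -0.012. The 95% intervals of the 5 fold changes, taken gene by gene, all lay between 0.706-fold and 1.43-fold. The other 2, *Vsx1* and *Bhlhe23*, had 16 counts or fewer in each sample and did not pass the filter on low counts.

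**Figure D1:**
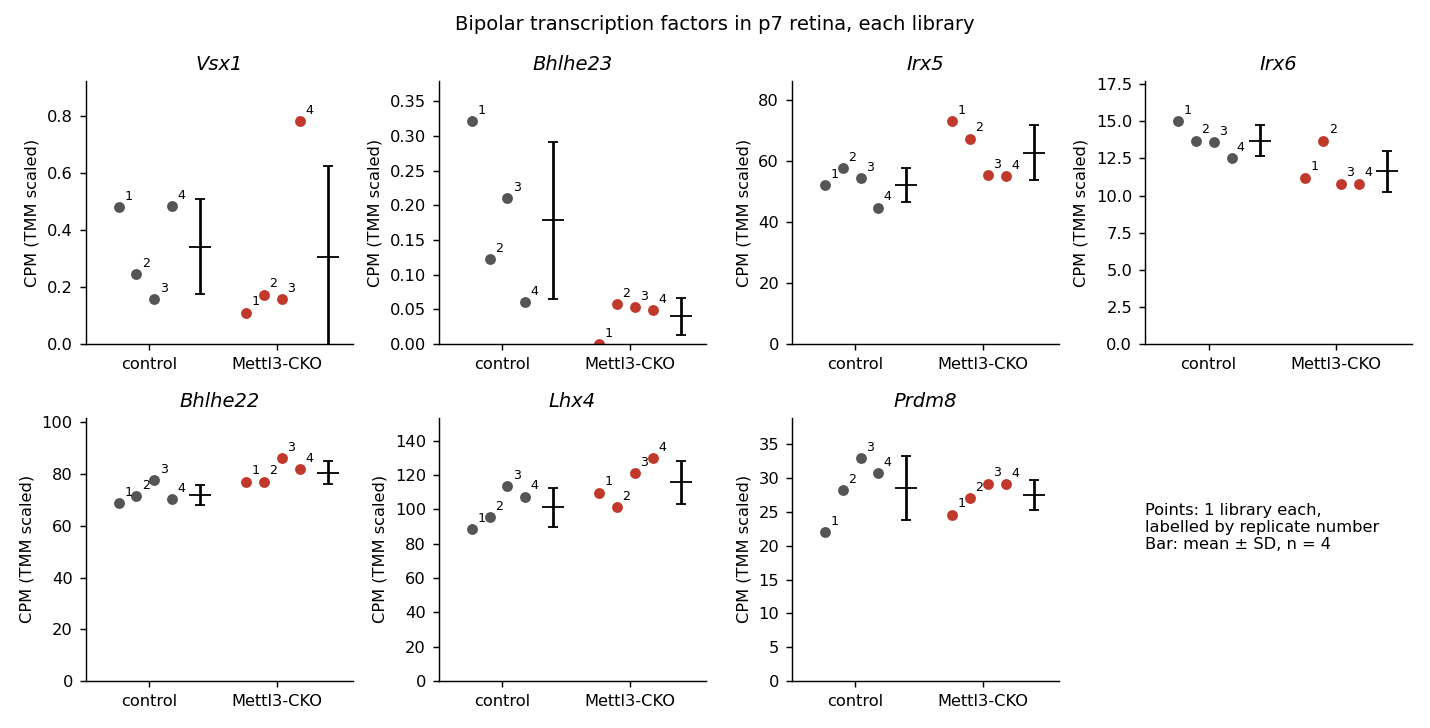
CPM (TMM scaled, y axis from 0) of the 7 bipolar transcription factors in 4 control (gray) and 4 *Mettl3*-CKO (red) libraries; each point is 1 library with its replicate number, and the black bar is the mean ± SD, cut at 0 for *Vsx1*. The groups overlap for *Irx5*, *Irx6*, *Bhlhe22*, *Lhx4*, *Prdm8* and *Vsx1*, and *Bhlhe23* is at or below 0.321 CPM.

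Levels can be compared between genes only per gene length, as FPKM (counts scaled by gene length and library total). *Bhlhe22* was the highest member, at 21.4 ± 1.34 FPKM (SD, n = 4) in controls, above 85.1% of tested genes. *Lhx4* followed at 17.5 ± 2.17 FPKM and *Irx5* at 16.6 ± 1.77 FPKM (SD, n = 4 each). *Bhlhe22* exceeded *Lhx4* in all 8 samples, but *Lhx4* and *Irx5* traded places, with *Lhx4* the higher in 2 of 4 samples of each group. *Prdm8* at 5.85 ± 1.05 FPKM and *Irx6* at 4.04 ± 0.239 FPKM (SD, n = 4 each) formed a lower tier, near the middle of the tested genes (53.2% and 45.0% of them lay below), with *Prdm8* the higher in each sample. *Vsx1* at 0.0894 ± 0.043 FPKM and *Bhlhe23* at 0.0699 ± 0.0431 FPKM (SD, n = 4 each) were at the bottom and could not be ordered in controls, where *Vsx1* was the higher in 2 of 4. For scale, the pan-bipolar factor *Otx2*, which photoreceptors also use, was at 253 ± 27.5 FPKM (SD, n = 4), and *Isl1*, of ON bipolar, amacrine and ganglion cells, at 11.9 ± 1.55 FPKM (SD, n = 4). The order of the members in *Mettl3*-CKO samples had the same 3 tiers, with *Bhlhe22* at 24.1 ± 1.24, *Lhx4* at 20.2 ± 2.24, *Irx5* at 20.1 ± 2.92, *Prdm8* at 5.67 ± 0.431 and *Irx6* at 3.46 ± 0.412 FPKM (SD, n = 4 each).

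**Figure D2:**
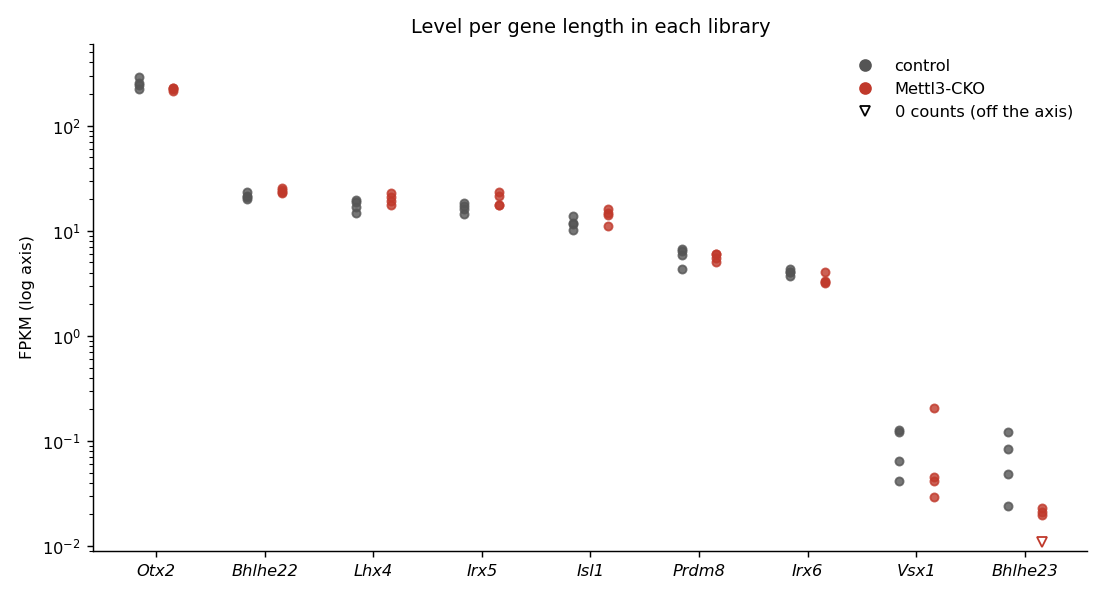
FPKM on a log axis of the 7 members and of *Otx2* and *Isl1*, 1 point per library (gray, 4 control; red, 4 *Mettl3*-CKO); the open triangle marks a library with 0 counts, which has no place on a log axis. *Bhlhe22*, *Lhx4* and *Irx5* lie between 14.4 and 25.6 FPKM, *Prdm8* and *Irx6* between 3.19 and 6.78 FPKM, and *Vsx1* and *Bhlhe23* at or below 0.208 FPKM.

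*Vsx1*, whose protein shapes the late differentiation of cone bipolar cells, had 2, 3, 3 and 16 counts across *Mettl3*-CKO and, across control, 9, 4, 3 and 8 counts. *Mettl3*-CKO replicates 1, 2 and 3 and control replicate 3 were at or under the 3-count floor, and the remaining libraries were above it. Each group summed to 24 counts. The ratio of the pooled rates, *Mettl3*-CKO over control, was 0.954 (exact 95% interval 0.519 to 1.75, counting error only). Without a filter on low counts its log2 fold change was -0.11 (SE 0.64; edgeR, adjusted p = 0.965 over 34486 genes). *Mettl3*-CKO replicate 4 alone held 16 of the 24 counts of its group, while the other *Mettl3*-CKO samples lay within or below the control range.

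*Bhlhe23*, required for the maturation of rod bipolar cells, had 0, 1, 1 and 1 counts across *Mettl3*-CKO and, across control, 6, 2, 4 and 1 counts. The groups met at 1 count. The ratio of pooled rates was 0.22, from 3 against 13 counts, with an exact 95% interval from 0.0402 to 0.801 that covers counting error only. The test that includes the spread between samples, edgeR without a filter, gave a log2 fold change of -2.0 with an SE of 1.01 (adjusted p = 0.337). A two-sided exact permutation test of log2 CPM gave p = 0.0286, the smallest that 4 samples against 4 allow, but the nearest samples of the 2 groups both held 1 count and were parted by library size alone. All *Mettl3*-CKO values were under the floor, and the difference did not pass edgeR's test, which takes in the spread between samples.

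*Irx5*, the Iroquois gene linked to the identity of OFF cone bipolar cells, had the largest difference among the tested members. It was at 73.0, 67.3, 55.4 and 54.9 CPM across *Mettl3*-CKO and, across control, 52.1, 57.6, 54.3 and 44.7 CPM. *Mettl3*-CKO replicates 1 and 2 lay above each control, and replicates 3 and 4 lay inside the control range. The means were 62.6 ± 8.98 and 52.2 ± 5.46 CPM (SD, n = 4 each), a log2 fold change of 0.26 with a 95% interval from 0.01 to 0.51 (SE 0.12; edgeR, adjusted p = 0.178). The two-sided exact permutation test gave p = 0.114. Without control replicates 1 and 4 the log2 fold change was 0.16 (adjusted p = 0.446 from edgeR).

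*Irx6*, its neighbor in the Iroquois cluster and a factor of OFF cone bipolar subtypes, pointed the other way. It was at 11.2, 13.7, 10.8 and 10.8 CPM across *Mettl3*-CKO and, across control, 15, 13.7, 13.6 and 12.5 CPM. Of the *Mettl3*-CKO samples, 3 lay below each control and replicate 2 lay among the controls. The means were 11.6 ± 1.41 and 13.7 ± 1.03 CPM (SD, n = 4 each), a log2 fold change of -0.24 with a 95% interval from -0.50 to 0.03 (SE 0.12; edgeR, adjusted p = 0.255; two-sided exact permutation test, p = 0.114). Without control replicates 1 and 4 it was -0.23 (adjusted p = 0.333 from edgeR).

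The balance of the Iroquois genes within a sample was looked at after *Irx5* and *Irx6* had been seen to point in opposite directions, and is described without a test. Each *Irx6* read was matched by 6.53, 4.90, 5.11 and 5.08 *Irx5* reads across *Mettl3*-CKO and, across control, by 3.47, 4.22, 3.98 and 3.57. All *Mettl3*-CKO samples lay above all controls, as they did in the ratio of *Irx5* to 14.6% of the 17932 tested genes with a count in each sample. The mean log2 ratio was 2.41 ± 0.19 against 1.92 ± 0.13 (SD, n = 4 each), a difference of 0.50. Against *Irx3*, another gene of the family, the *Irx5* reads per read were 14, 12.9, 10.5 and 11.5 across *Mettl3*-CKO and, across control, 9.19, 10, 7.14 and 7.55, again without overlap. Against *Irx4* the ratio was 6.38 to 7.14 in *Mettl3*-CKO and 5.02 to 6.20 in control samples, also apart. Against *Irx1* and *Irx2* the groups overlapped, at 33.2 to 70.2 and 36.1 to 72.3 for *Irx1* and at 10.3 to 12.7 and 9.84 to 15.9 for *Irx2*. *Irx3* itself was at 5.12 ± 0.22 and 6.24 ± 0.918 CPM (SD, n = 4 each; log2 fold change -0.29, SE 0.15; edgeR, adjusted p = 0.267).

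**Figure D3:**
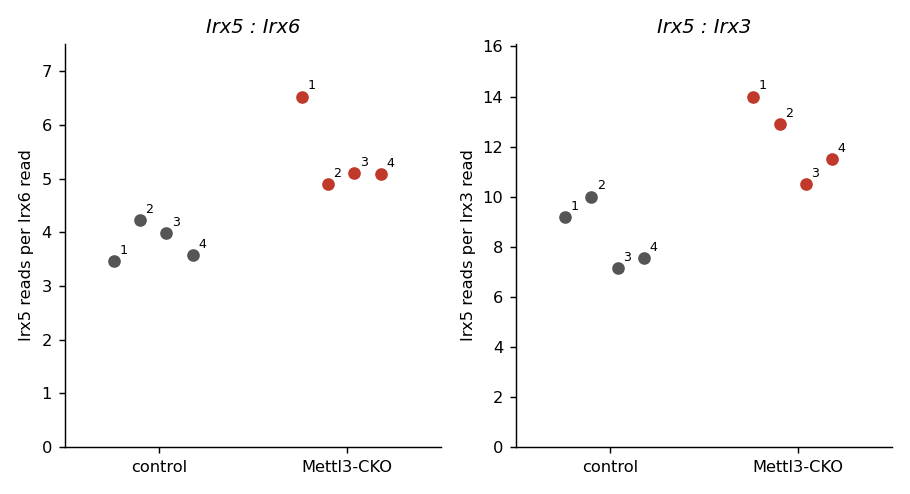
Reads of *Irx5* per read of *Irx6* (left) and per read of *Irx3* (right) in each of 4 control (gray) and 4 *Mettl3*-CKO (red) libraries, labelled by replicate number, with the y axes from 0. The *Mettl3*-CKO libraries lie at 4.90 to 6.53 and 10.5 to 14, above the controls at 3.47 to 4.22 and 7.14 to 10; the ratios to *Irx1* and *Irx2*, not drawn, overlapped between groups.

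*Bhlhe22*, a bHLH repressor of OFF cone bipolar and amacrine subtypes, was the steadiest member between samples. It was at 77.1, 77.1, 86.3 and 81.9 CPM across *Mettl3*-CKO and, across control, 68.9, 71.4, 77.7 and 70.3 CPM. Control replicate 3 lay above 2 of the *Mettl3*-CKO samples, and the remaining controls lay below all of them. The means were 80.6 ± 4.44 and 72.1 ± 3.90 CPM (SD, n = 4 each), a log2 fold change of 0.16 with a 95% interval from -0.02 to 0.34 (SE 0.08; edgeR, adjusted p = 0.253; two-sided exact permutation test, p = 0.0857). In fold terms the interval ran from 0.988 to 1.27. Without control replicates 1 and 4 the log2 value was 0.11 (adjusted p = 0.502 from edgeR).

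*Lhx4*, the LIM homeobox gene of bipolar cells and cones, had the most counts of the 7 (1556 to 2661 per sample). It was at 109.8, 101.5, 121.3 and 130 CPM across *Mettl3*-CKO and, across control, 88.3, 95.3, 113.4 and 107.4 CPM. The groups overlapped by *Mettl3*-CKO replicates 1 and 2 and control replicates 3 and 4. The means were 115.7 ± 12.5 and 101.1 ± 11.4 CPM (SD, n = 4 each), a log2 fold change of 0.19 with a 95% interval from -0.03 to 0.42 (SE 0.11; edgeR, adjusted p = 0.282; two-sided exact permutation test, p = 0.143). Without control replicates 1 and 4 this was 0.15 (adjusted p = 0.438 from edgeR). Cone markers summed to 526.2 to 730.9 CPM in *Mettl3*-CKO and 605.1 to 702.7 CPM in control retinas. Of 9 tested, 1 was called lower and 0 higher, beside 4.05% and 6.49% of all tested genes. Their part in the *Lhx4* value was not tested.

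*Prdm8*, which acts in rod bipolar and amacrine cells, differed least. It was at 24.6, 27.1, 29.2 and 29.1 CPM across *Mettl3*-CKO and, across control, 22.0, 28.2, 33.0 and 30.8 CPM, so that the control range enclosed all *Mettl3*-CKO samples. The means were 27.5 ± 2.15 and 28.5 ± 4.76 CPM (SD, n = 4 each), a log2 fold change of -0.05 with a 95% interval from -0.32 to 0.22 (SE 0.12; edgeR, adjusted p = 0.852; two-sided exact permutation test, p = 0.80). Its sign depended on control replicate 3, without which the value was 0.03, and it was -0.16 without control replicates 1 and 4 (adjusted p = 0.428 from edgeR). Amacrine markers, which bear on *Prdm8* and *Bhlhe22*, summed to 1395.9 to 1803.2 CPM in *Mettl3*-CKO and 1293.1 to 1744.7 CPM in control retinas. Of 10, 1 was called lower and 0 higher, beside 4.05% and 6.49% of all tested genes, and their part was not tested.

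The genes whose pattern over the 8 samples was closest to a member were found by the root mean square difference of centered log2 CPM among genes with a mean log2 CPM of at least 1. For *Irx5* they were *Tox3*, *Tbc1d25* and *Tlnrd1*, with differences of 0.0521, 0.0535 and 0.0628 against a spread of *Irx5* itself of 0.204. For *Irx6* they were *Wwtr1*, *Rab10* and *Uso1* (0.0497 to 0.0507, own spread 0.17), for *Bhlhe22* *Rnf25*, *Daam1* and *Ahctf1* (0.0449 to 0.0485, own spread 0.105), for *Lhx4* *Zfp830*, *1110008L16Rik* and *Csrnp2* (0.0507 to 0.0637, own spread 0.17), and for *Prdm8* *Tmem178b*, *Shisal1* and *Rprd1b* (0.0427 to 0.0517, own spread 0.172). No member was among the 3 nearest genes of another member. With 14316 genes compared over 8 samples such a match was unlikely in advance, so whether the members vary together is not decided by it. *Vsx1* and *Bhlhe23* had too few counts for such a comparison.

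Among 14 other bipolar transcription factors, all tested, 2 were called higher and 1 lower, beside 6.49% and 4.05% of all tested genes, and their median log2 fold change was -0.03. At an unadjusted p under 0.05 in edgeR there were 8 of the 14, against 24.6% of all tested genes. The groups did not overlap in 4 of the 14, against 17.3% of all tested genes. Whether these factors differed from the members was not tested. Without control replicates 1 and 4 the counts were 2 and 2. *Zfhx4*, a zinc finger homeobox gene, rose by 0.57 on the log2 scale (SE 0.11; adjusted p = 0.00766), from 34.9 ± 4.76 to 52.0 ± 5.21 CPM (SD, n = 4 each), in edgeR's test. *Neurod4*, a bHLH gene that acts in bipolar genesis, rose by 0.42 (SE 0.12; edgeR, adjusted p = 0.0467) to 1055 ± 150 CPM from 790 ± 97.0 CPM (SD, n = 4 each), and its groups overlapped. *Neurod1*, a bHLH gene of photoreceptors and amacrine cells, had a log2 fold change of -0.35 (SE 0.08; edgeR, adjusted p = 0.0148) and was at 498 ± 28.5 against 635 ± 14.7 CPM (SD, n = 4 each).

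Among factors of this list that did not pass, *Otx2* had a log2 fold change of -0.18 (adjusted p = 0.268 from edgeR) and *Isl1* of 0.23 (adjusted p = 0.31 from edgeR). The calls rested on single libraries to different degrees. *Zfhx4* passed whichever of the 8 libraries was left out (adjusted p up to 0.0331 from edgeR). *Neurod1* was lost without *Mettl3*-CKO replicate 1 (adjusted p = 0.0582 from edgeR). *Neurod4* stayed called only without *Mettl3*-CKO replicate 2 or control replicate 1 (adjusted p up to 0.138 from edgeR). Cycling-cell markers differed between the groups in the direction of the higher factors. Of 10, 3 were called higher and 0 lower (6 higher by DESeq2, 1 without control replicates 1 and 4), beside 6.49% and 4.05% of tested genes. Their sum was 2439.3 to 3170.5 CPM in *Mettl3*-CKO and 1833.4 to 2355.0 CPM in control retinas. By replicate, this sum was 3170.5, 3095.7, 2963.0 and 2439.3 CPM in *Mettl3*-CKO and 1833.4, 2355.0, 2066.7 and 2103.3 CPM in control samples. *Zfhx4* was at 46.3, 49.5, 53.7 and 58.3 CPM across *Mettl3*-CKO and, across control, 30.0, 32.1, 40.3 and 37.5 CPM. *Neurod4* was at 1062.5, 841.0, 1165.2 and 1150.4 CPM across *Mettl3*-CKO and, across control, 865.1, 649.2, 839.7 and 807.7 CPM. Rod markers differed between the groups in the direction of *Neurod1*: 6 of 10 were called lower and 0 higher. Their sum was 1565.4 to 2983.7 against 2854.3 to 4256.1 CPM. The part of either list in these results was not tested.

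**Figure D4:**
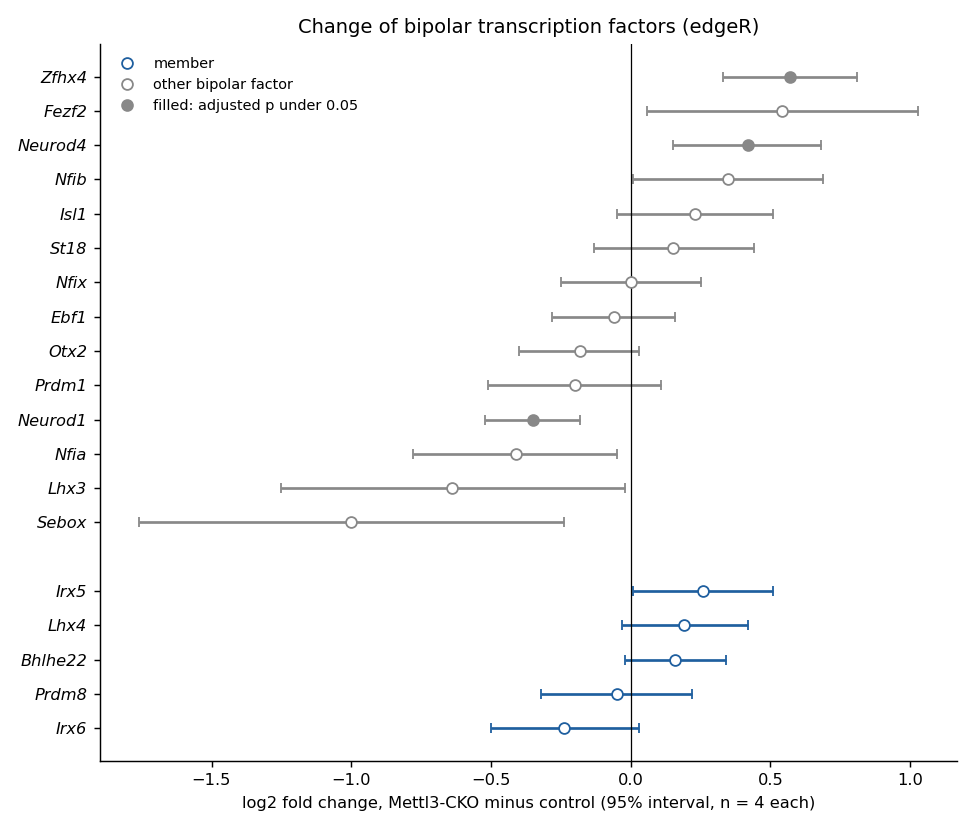
Log2 fold change (*Mettl3*-CKO minus control, edgeR, n = 4 each) with its 95% interval for the 5 tested members (blue) and 14 other bipolar transcription factors (gray); filled points passed an adjusted p under 0.05. The members lie between -0.24 and 0.26 and none is filled, while *Zfhx4* and *Neurod4* are filled on the right and *Neurod1* on the left.

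Relatives of the members in the Iroquois, LIM homeobox, bHLH and PR domain families were also read. Of 24 such genes, 20 were tested, with a median log2 fold change of 0.08. The calls were 1 higher and 2 lower, beside 6.49% and 4.05% of tested genes, or 0 and 1 without control replicates 1 and 4. *Prdm13*, a gene of amacrine subtypes and a relative of *Prdm8*, was at 52.9 ± 8.05 CPM in *Mettl3*-CKO and 83.6 ± 9.95 CPM in control retinas (SD, n = 4 each), a log2 fold change of -0.66 (SE 0.12; edgeR, adjusted p = 0.00566) that stayed called whichever library was left out. *Bhlhe41*, a bHLH repressor related to the circadian clock, had a log2 fold change of -0.57 (SE 0.15; edgeR, adjusted p = 0.0284), lost without any of *Mettl3*-CKO replicates 1, 2 and 3 and control replicates 2 and 4 (adjusted p up to 0.0979). The higher gene, named after its value was seen, was *Lhx2*, a LIM homeobox gene of RPCs and Müller glia, with a log2 fold change of 0.52 (SE 0.14; edgeR, adjusted p = 0.0312), lost without *Mettl3*-CKO replicate 1 or 2 or control replicate 2 or 4 (adjusted p up to 0.125).

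Genes that bipolar cells use once they differentiate had calls in both directions. Of 12 pan-bipolar genes, 10 were tested (median log2 fold change -0.09). The calls were 1 higher and 2 lower, beside 6.49% and 4.05% of tested genes, or 1 and 0 without control replicates 1 and 4. *Pcp2*, a G protein modulator of rod and ON bipolar cells, was at 5.03 ± 1.12 against 2.63 ± 0.523 CPM (SD, n = 4 each; log2 fold change 0.94, SE 0.22; edgeR, adjusted p = 0.0187). *Gnb3*, the G protein beta subunit of cones and ON bipolar cells, was at 390.0 ± 46.3 against 519 ± 60.7 CPM (log2 fold change -0.41, SE 0.11; edgeR, adjusted p = 0.0306). *Kcnip3*, a calcium-binding partner of potassium channels, had a log2 fold change of -0.48 (SE 0.13; edgeR, adjusted p = 0.0379). Leaving out 1 library lost *Pcp2* without *Mettl3*-CKO replicate 1 or 3 or control replicate 2, *Gnb3* without *Mettl3*-CKO replicate 1 or 2 or control replicate 4, and *Kcnip3* without any single *Mettl3*-CKO replicate or control replicate 2, with adjusted p up to 0.129 from edgeR.

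Of 21 rod and ON cone bipolar genes, 20 were tested (median log2 fold change -0.01). The calls were 0 higher and 1 lower, beside 6.49% and 4.05% of tested genes, or 1 and 0 without control replicates 1 and 4. The lower one was *Prkca*, the protein kinase that marks rod bipolar cells, at 47.5 ± 6.11 against 64.3 ± 8.71 CPM (SD, n = 4 each; log2 fold change -0.44, SE 0.12; edgeR, adjusted p = 0.0339), lost without *Mettl3*-CKO replicate 1, 2 or 3 or control replicate 3 or 4 (adjusted p up to 0.141). *Gpr179*, an orphan receptor of the ON bipolar dendrite, and the homeobox gene *Sebox* were next by p, with log2 fold changes of 0.39 and -1.0 (adjusted p = 0.0789 and 0.0911 from edgeR). *Grm6*, the glutamate receptor that defines ON bipolar cells, had 0 to 5 counts per sample. Of 12 OFF cone bipolar genes, all tested, 0 were called in either direction by edgeR, beside 6.49% and 4.05% of tested genes. DESeq2 called 1 of them lower, beside 1072 of all 17998 genes. In edgeR, 2 of the 12 were at an unadjusted p under 0.05, against 24.6% of all tested genes. Their median log2 fold change was -0.08. The nearest to the threshold in edgeR were *Nnat*, *Lhx3* and *Irx3*, with log2 fold changes of -0.27, -0.64 and -0.29 (adjusted p = 0.0779, 0.185 and 0.267).

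Markers of other cells in the samples moved as follows in edgeR's test, with their part in the values above not tested. Over all tested genes, 6.49% were called higher and 4.05% lower. Müller glial markers had 1 called higher and 2 lower of 8 tested, horizontal cell markers 1 higher and 1 lower of 7, and ganglion cell markers 1 higher and 0 lower of 8. Endothelial markers had 5 of 7 called lower, astrocyte markers 2 of 4, pigment epithelium markers 3 of 6 and lens markers 3 of 5, with 0 higher in each. By DESeq2, 5 endothelial, 2 astrocyte, 3 pigment epithelium and 0 lens markers were called lower, beside 1072 of all 17998 genes. Microglial markers had 0 of 7 called by edgeR and 0 by DESeq2. In edgeR, 1 of the 7 was at an unadjusted p under 0.05, against 24.6% of all tested genes. Without control replicates 1 and 4, 0 lens markers were called lower and 5 microglial markers were called higher.

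The fold changes of the 5 tested members were recomputed under 16 other settings. No member was called in any of them. Over the fits that left out 1 library, *Irx5* ran from 0.19 to 0.32, *Lhx4* from 0.13 to 0.26, *Bhlhe22* from 0.13 to 0.20, *Irx6* from -0.33 to -0.19 and *Prdm8* from -0.16 to 0.03. The lowest adjusted p under any setting was 0.112 for *Irx5*, 0.129 for *Irx6*, 0.161 for *Lhx4*, 0.206 for *Bhlhe22* and 0.28 for *Prdm8*.

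**Figure D5:**
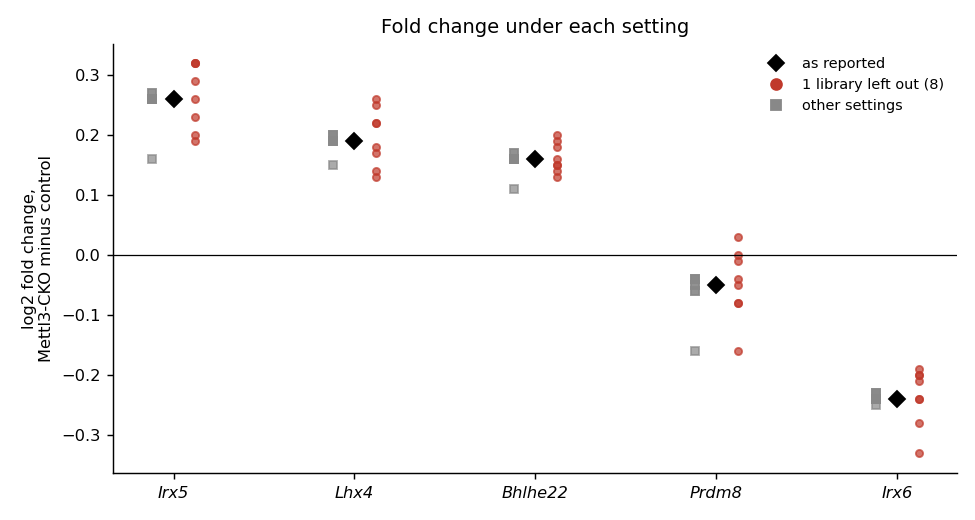
Log2 fold change (*Mettl3*-CKO minus control, y axis) of the 5 tested members as reported (black diamonds), with 1 library left out (8 red points each) and under the other settings (gray squares). *Irx5*, *Lhx4* and *Bhlhe22* stay above 0 and *Irx6* below 0 in each, and *Prdm8* lies on both sides of 0.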

How the data were processed

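Whole-retina RNA from 4 *Mettl3*-CKO and 4 control samples was sequenced. Reads were aligned by the authors with Hisat2 (GRCm38) after filtering, and featureCounts gave a count for each gene. The table they deposited holds raw read counts (whole numbers, 54532 genes), with gene lengths in bases in the table itself. The annotation release and strand setting of the counting are not given in the sources used here. Groups and replicate numbers were taken from the sample titles.

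In R 4.3.3, edgeR 4.0.16 kept 17998 genes (filterByExpr), scaled them by TMM and tested them with the quasi-likelihood test and Benjamini-Hochberg adjustment at 0.05. Standard errors are the absolute log2 fold change over the square root of F. Log2 CPM used a prior count of 2, and FPKM, marker sums and the detection floor used library totals. DESeq2 1.42.0 and limma voom (limma 3.58.1) were alternatives, with other scalings, no filter, a threshold of 0.01, a replicate block and left-out samples. The edgeR step was tested on simulated data. No pair of samples was alike within sampling noise (lowest chi-square 5.45 per gene).

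The members and gene lists were chosen with earlier results of these data known. Genes were named by a rule: all members, called genes of the bipolar factor list with *Otx2* and *Isl1*, the 3 lowest p-values of each further bipolar and family list, and the 3 genes nearest to each member in pattern, not given for *Vsx1* and *Bhlhe23*. Marker lists covered rods, cones, amacrine, horizontal and ganglion cells, Müller glia, cycling progenitors, endothelium, microglia, astrocytes, lens and pigment epithelium. Some genes of these lists are not reported here, and the counts leave them out.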

Additional observations from a re-analysis of the deposited data

Results flagged for a closer look

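Dixon's test for a lone extreme value was applied to the log2 CPM of the members and of the other genes named with their calls, separately in *Mettl3*-CKO and control samples. It marked 3 of 38 groups, and about 1.9 are expected by chance. *Irx6* was at 3.79 on the log2 CPM scale (237 counts) in *Mettl3*-CKO replicate 2, against 3.45 to 3.50 in *Mettl3*-CKO replicates 1, 3 and 4. *Pcp2* was at 1.80 (58 counts) in the same library, against 2.45 to 2.56. *Bhlhe23* was at -3.18 (0 counts) in *Mettl3*-CKO replicate 1, against -2.65 to -2.57 (1 count each).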

How the results depend on the processing

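The counts of called genes over the whole table were 1168 higher and 729 lower. At an adjusted p under 0.01 they were 439 and 147. Leaving out 1 library gave 509 to 1882 higher genes and 185 to 1289 lower genes, with the lowest counts without *Mettl3*-CKO replicate 1 and the highest without control replicate 1. With the replicate number as a block, edgeR called 1198 higher and 660 lower and none of the members. Deviations of same-numbered samples correlated at -0.111, 0.215, -0.114 and 0.249, so the numbers were not taken to pair the samples. No member was called under any setting, and *Irx5*, *Irx6*, *Lhx4* and *Bhlhe22* kept their direction in all 16. The threshold of 0.01 is counted among these, although it keeps the fold changes of the main fit. *Prdm8* ranged from -0.16 to 0.03 with 1 library left out and turned positive without control replicate 3, and the cause was not tested. Leaving out control replicates 1 and 4 together, chosen after the data were seen, gave 1175 higher and 682 lower. Counts of called genes in the marker and bipolar lists, all small, changed by more than 1.5 times in 17 of the recounts made with DESeq2 or without these controls. Depth limits *Vsx1* and *Bhlhe23*, which stayed at 16 counts or fewer per sample.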

Other observations

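The deposited table assigns genes to transcription factor families, which places the members among their kind. Of 64 tested genes of its homeobox family, which holds *Vsx1*, *Irx5*, *Irx6* and *Lhx4*, 8 were called higher and 3 lower in *Mettl3*-CKO retinas by edgeR, with a median log2 fold change of 0.06. Of 67 tested bHLH genes, the family of *Bhlhe22* and *Bhlhe23*, 4 were called higher and 8 lower, with a median of -0.07. Of 469 tested C2H2 zinc finger genes, the family under which *Prdm8* is listed, 46 were called higher and 4 lower, with a median of 0.08. Over all tested genes, 6.49% were called higher and 4.05% lower. The families were counted after the values of the members had been seen, and no test compared them.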
